A study of Homo sapiens with 40 samples.

Results

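The regions described here are the stretches of open chromatin at the 4 syndecan genes SDC1, SDC2, SDC3 and SDC4 in BT474 and BT474R breast cancer cells. Peaks of all 40 deposited ATAC-seq lists were merged where they overlapped by at least 1 bp, regions found in at least 2 lists were kept, and a region was taken when its midpoint lay in the body of a syndecan gene or within 50 kb of either end. This gave 41 regions of 71600 in the series, of which 17 were at SDC1, 2 at SDC2, 9 at SDC3 and 13 at SDC4. Each region carries the name of its gene and the distance in kb of its midpoint from the start of the gene's Ensembl canonical transcript, with a plus sign for downstream in the direction of transcription.

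Syndecans are transmembrane proteoglycans whose outer domains carry heparan sulfate chains, which bind growth factors, chemokines and matrix proteins at the cell surface. HRG has a heparin-binding domain, and syndecans can act as co-receptors for such ligands. SDC1 is the syndecan best known from epithelial cells and plasma cells, SDC2 from mesenchymal cells, SDC3 from the nervous system and SDC4 from focal adhesions of many cell types.

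BT474 is a HER2-overexpressing line from a breast ductal carcinoma, and BT474R is its clone 5, grown in trastuzumab until resistant, so that each line stands for a single culture lineage. Both lines were serum starved and then received EGF, HRG (heregulin) or the vehicle, water, in starvation medium, and were collected after 1, 12 and 24 h, next to an untreated starved baseline at 0 h. Each of the 20 groups of line, arm and time held 2 libraries, and nothing in the labels says that they came from separate cultures, so p-values measure the spread between libraries. ATAC-seq inserts sequencing adapters into open chromatin, and each list gives the peaks that the Genrich caller found in 1 library.

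Lists held 47571 to 56846 peaks in BT474 and 32479 to 56494 in BT474R, where the control and EGF libraries at 12 h had the fewest (32479 and 40331, and 37476 and 38205) and HRG at 12 h had 42604 and 45808. No list shared an identical row with another. Promoters of GATA3, FOXA1, KRT8, KRT18 and ERBB2 had a peak in all 40 lists and that of ESR1 in 20 of 20 BT474 and 3 of 20 BT474R lists, whereas the promoters of CD3E, PTPRC, ALB and MYOD1 held no region. Copy number was not measured in these files, and a difference in copy number between the lines cannot be told apart from a difference in accessibility. Read counts were not in the lists. The values below are therefore the presence of a peak and its level, given as the rank percentile of the peak's score within its own list, with 100 as the highest peak. The score is the signal value that the caller wrote for each peak, which the sources do not define, so that only its order within a list was used.

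The sequences behind the main results are shown first, because the ligand and line comparisons turn on these regions. Each line gives the 201 bases centred on the summit of a region, on the plus strand of hg38, with matches to the AP-1 motif TGANTCA on either strand in capitals. AP-1, formed by FOS and JUN proteins, is a transcription factor that acts below growth factor receptors.
SDC4 -9.1 kb (chr20:45357450-45357650): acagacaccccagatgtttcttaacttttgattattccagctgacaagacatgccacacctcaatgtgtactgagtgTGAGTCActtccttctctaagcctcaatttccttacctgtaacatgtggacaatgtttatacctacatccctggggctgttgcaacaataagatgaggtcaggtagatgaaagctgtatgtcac
SDC4 +11.6 kb (chr20:45336722-45336922): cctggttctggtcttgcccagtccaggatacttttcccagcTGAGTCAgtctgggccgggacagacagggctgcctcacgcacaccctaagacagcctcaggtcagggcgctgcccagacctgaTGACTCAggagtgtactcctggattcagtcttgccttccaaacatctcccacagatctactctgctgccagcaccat
SDC4 +2.0 kb (chr20:45346346-45346546): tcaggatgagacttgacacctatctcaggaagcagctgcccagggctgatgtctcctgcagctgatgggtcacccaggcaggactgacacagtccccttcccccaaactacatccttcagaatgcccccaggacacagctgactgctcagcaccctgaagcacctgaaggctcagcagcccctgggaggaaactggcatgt
SDC1 +42.4 kb (chr2:20182616-20182816): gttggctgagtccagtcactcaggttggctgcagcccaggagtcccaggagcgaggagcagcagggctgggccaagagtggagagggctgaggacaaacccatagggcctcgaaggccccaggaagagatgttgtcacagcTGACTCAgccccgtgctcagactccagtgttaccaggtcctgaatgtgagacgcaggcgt
SDC1 +39.0 kb (chr2:20186508-20186708): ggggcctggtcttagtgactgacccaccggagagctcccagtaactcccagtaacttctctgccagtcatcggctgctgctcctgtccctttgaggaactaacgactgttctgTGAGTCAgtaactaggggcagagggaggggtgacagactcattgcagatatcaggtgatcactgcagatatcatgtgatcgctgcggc
SDC1 +35.0 kb (chr2:20190204-20190404): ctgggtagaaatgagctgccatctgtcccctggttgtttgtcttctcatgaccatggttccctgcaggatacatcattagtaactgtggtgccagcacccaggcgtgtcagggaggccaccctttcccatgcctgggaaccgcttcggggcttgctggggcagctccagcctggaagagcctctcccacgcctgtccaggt
SDC1 -11.0 kb (chr2:20236049-20236249): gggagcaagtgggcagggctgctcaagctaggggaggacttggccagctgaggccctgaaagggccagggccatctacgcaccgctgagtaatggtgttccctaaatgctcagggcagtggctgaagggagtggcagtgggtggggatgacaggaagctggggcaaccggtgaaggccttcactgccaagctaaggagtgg
SDC3 +29.3 kb (chr1:30879527-30879727): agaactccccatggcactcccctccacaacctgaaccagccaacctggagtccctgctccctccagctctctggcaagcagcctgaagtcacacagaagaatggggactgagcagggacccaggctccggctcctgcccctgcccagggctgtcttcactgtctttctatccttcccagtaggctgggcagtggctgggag
SDC3 +20.7 kb (chr1:30888451-30888651): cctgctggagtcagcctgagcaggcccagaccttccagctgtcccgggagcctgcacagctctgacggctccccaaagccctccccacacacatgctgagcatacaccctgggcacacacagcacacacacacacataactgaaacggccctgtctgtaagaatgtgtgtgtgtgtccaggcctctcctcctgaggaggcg

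SDC4 +11.6 kb held 2 AP-1 matches, and SDC4 -9.1 kb, SDC1 +42.4 kb and SDC1 +39.0 kb held 1 each. No match lay within these windows at SDC4 +2.0 kb, SDC1 +35.0 kb, SDC1 -11.0 kb, SDC3 +29.3 kb or SDC3 +20.7 kb. Over the 41 syndecan regions, 8 (19.5%) held the AP-1 motif, against 16.3% of all 71600 regions. The GC box GGGCGG was in 10 of 41 (24.4%, 19.3% of all regions), TEAD GGAATG in 4 (9.76%, 13.8%), the forkhead motif (TGTTTAC), the motif of GATA factors (AGATAA) and the hypoxia response motif (ACGTG) in 1 each (2.44%, against 8.58%, 8.91% and 13.1%), and ETS CCGGAAG in none (3.88%). All motifs were searched on both strands, and none of them contains another. Median GC content of the windows was 60.2% for the syndecan regions and 51.7% for all regions.

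The start of SDC3 stood apart from those of the other 3 genes, since no region lay within 1 kb of its canonical start. The 250 bases before the RefSeq starts of SDC3 and SDC4 (GRCh38.p14, minus strand, written 5′ to 3′ toward the gene) are shown with GC boxes in capitals, because the first had no peak over it and the second had one in most lists.
SDC3 promoter (chr1:30908759-30909008): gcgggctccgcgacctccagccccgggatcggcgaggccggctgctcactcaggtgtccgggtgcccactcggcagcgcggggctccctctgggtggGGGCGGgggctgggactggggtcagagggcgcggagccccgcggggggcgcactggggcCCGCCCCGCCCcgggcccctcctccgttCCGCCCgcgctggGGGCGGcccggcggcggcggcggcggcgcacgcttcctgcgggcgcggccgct
SDC4 promoter (chr20:45348425-45348674): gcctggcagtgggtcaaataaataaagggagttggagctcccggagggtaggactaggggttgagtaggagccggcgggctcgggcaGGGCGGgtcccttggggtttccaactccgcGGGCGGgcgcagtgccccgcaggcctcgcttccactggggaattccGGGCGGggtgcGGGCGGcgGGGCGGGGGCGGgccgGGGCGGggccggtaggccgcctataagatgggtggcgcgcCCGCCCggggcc

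Bases were 83.6% G or C before SDC3, with 5 GC boxes, and 73.6% before SDC4, with 8, against a median of 58.0% over 35116 RefSeq promoters, of which 42.6% held a GC box. Of 19962 protein-coding genes, 33.6% had no region within 1 kb of their start, and 52.1% had a region there in all 40 lists.

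Open chromatin was dense at SDC1 (13.6 regions per 100 kb), SDC4 (10.6) and SDC3 (6.46) and sparse at SDC2 (0.918), against 2.36 per 100 kb over the genome. A peak was present in all 40 lists at 19 of the 41 regions (46.3%), against 35.1% of all regions. Another 7 of the 41 had no peak in any BT474 list (14.0% of all regions), and 1 of the 41 had none in any BT474R list (13.9% of all regions). Syndecan regions were a median of 687 bp wide, against 551 bp for all regions.

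**Figure D1:**
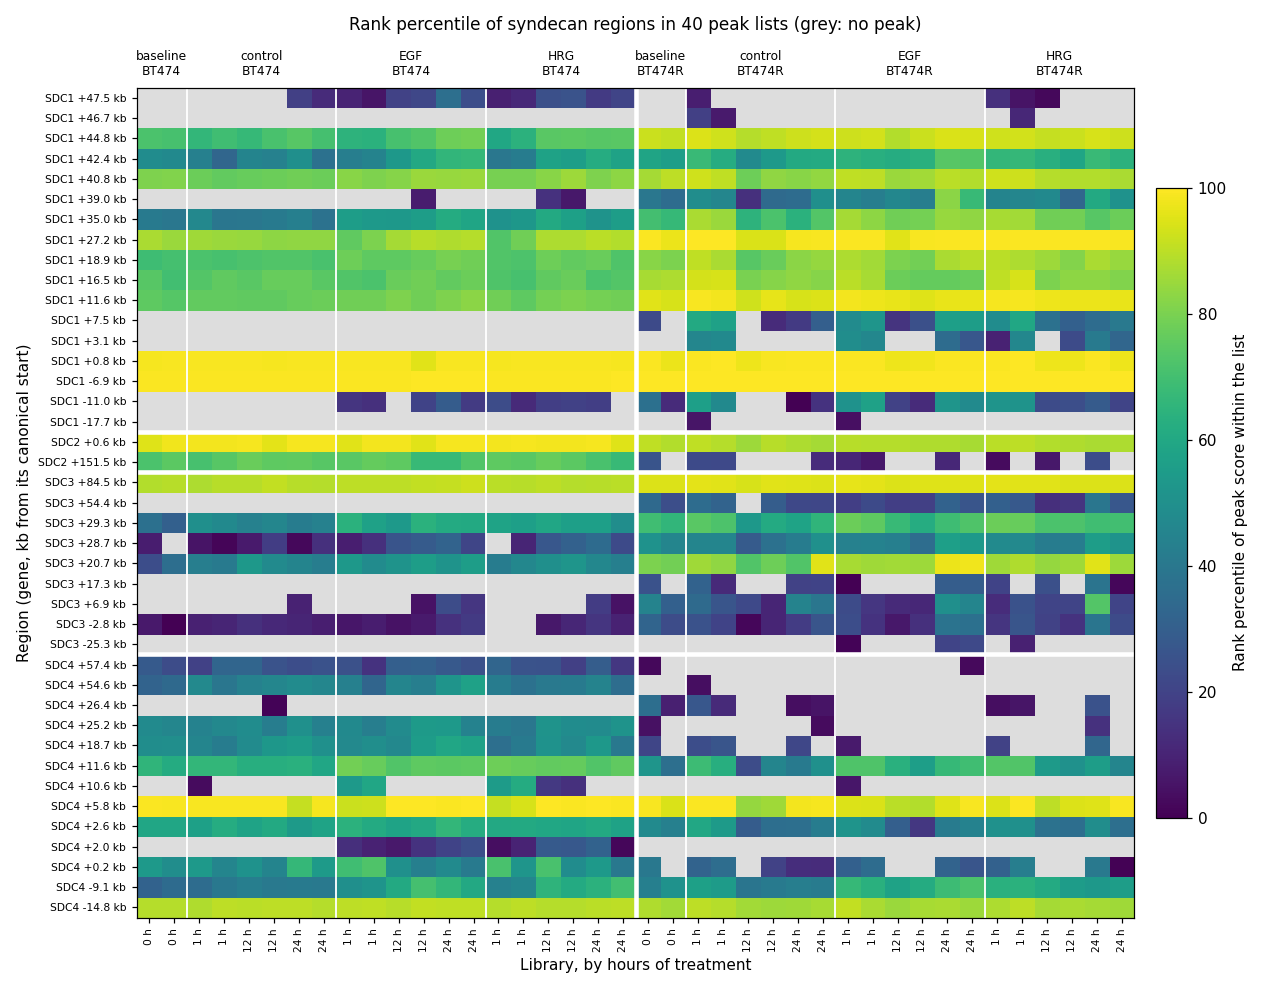
Rank percentile (colour, 0 to 100) of each of the 41 syndecan regions (rows, in genome order within a gene) in each of the 40 lists (columns, by line, arm and hours), with grey where a list had no peak. Bright rows without grey mark SDC1 -6.9 kb and +0.8 kb and SDC2 +0.6 kb, and the grey on the right at SDC4 +57.4, +54.6, +25.2 and +18.7 kb marks regions with a peak in all 20 BT474 lists but in 1 to 7 of the 20 BT474R lists.

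Levels at the promoters ran from near the top of the lists to the middle. SDC1 (GENCODE gene at chr2:20200797-20225433, minus strand) had its promoter region at SDC1 +0.8 kb, which stood at 98.8 ± 0.795 (SD, n = 20 libraries) in BT474 and 98.7 ± 1.02 in BT474R. The region SDC1 -6.9 kb, upstream of the gene and intergenic, was the highest of the 41, at 99.5 ± 0.104 in BT474 and 99.7 ± 0.0407 in BT474R. The promoter region SDC2 +0.6 kb (gene at chr8:96493813-96611790, plus strand) stood at 97.7 ± 1.37 and 88.4 ± 1.33, and its values did not overlap between the lines (lowest in BT474 94.9, highest in BT474R 90.6). SDC4 (chr20:45325288-45348424, minus strand) had a promoter region, SDC4 +0.2 kb, in 20 of 20 BT474 lists at 54.0 ± 10.5 and in 14 of 20 BT474R lists at 28.0 ± 12.3, counting the lists with a peak. SDC3 (chr1:30869466-30908758, minus strand) had its nearest region to the start at SDC3 -2.8 kb, with a peak in 18 of 20 BT474 lists at 9.43 ± 4.06 and in 20 of 20 BT474R lists at 21.4 ± 10.1. The order of the promoter regions in BT474 was SDC1, SDC2 and SDC4, where the values of SDC1 and SDC2 overlapped and those of SDC4 (39.9 to 72.3) lay below both. SDC4's promoter values were most like those of MSRB3 (Pearson's r = 0.886 over 40 lists after the mean of each line was subtracted, an absent peak counted as 0), MALT1 (0.869) and PTPRU (0.859), a description over lists that also share their length.

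**Figure D2:**
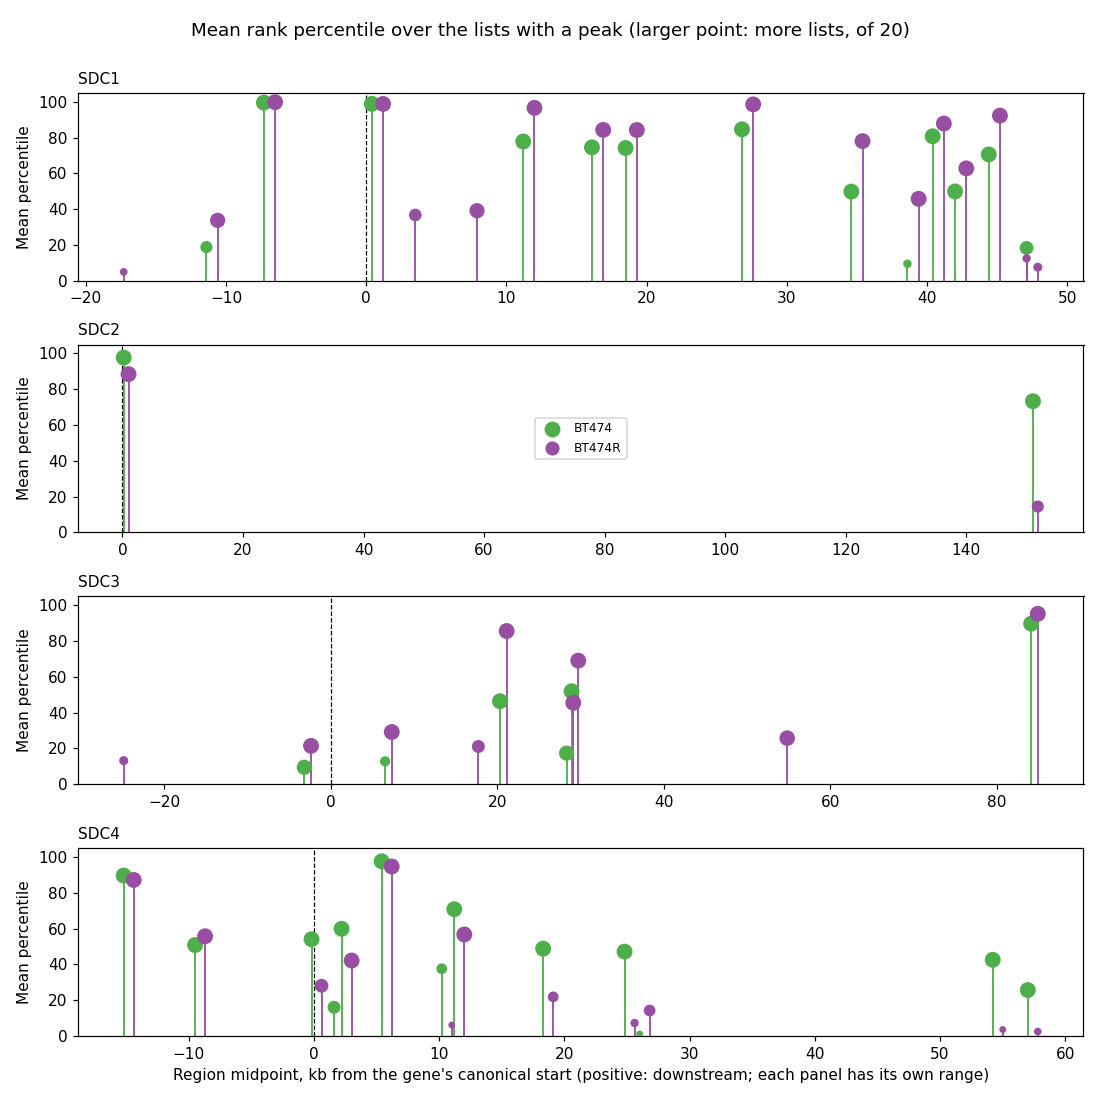
Mean rank percentile over the lists with a peak (vertical axis) at each region by its distance in kb from the gene's canonical start (horizontal axis, dashed line at 0), for BT474 (green) and BT474R (purple). Points are shifted slightly apart, and larger points had a peak in more of the 20 lists. SDC3 has no point at its start, and most SDC1 points are higher in BT474R whereas most SDC4 points are higher in BT474.

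Ligand against vehicle was the first comparison, asked separately in each line. In BT474, some regions at SDC4, SDC1 and SDC3 had higher levels after EGF and after HRG. They were 9 of 25 tested for EGF and 7 of 25 for HRG, where 17.8% and 17.7% of all regions were called. These regions lay in introns or outside the genes, and SDC3 +29.3 kb also lay near the start of another SDC3 transcript. At the promoter regions of SDC1, SDC2 and SDC4 no ligand difference averaged over the 3 times passed the test. At 1 h SDC4 +0.2 kb was at 69.4 and 72.3 in EGF-BT474, 71.4 and 52.0 in HRG-BT474, and 54.2 and 45.6 in control. This also did not pass. The region was called as 1 peak in both of those EGF lists and in the HRG list at 71.4. It was called as 2 peaks in the HRG list at 52.0 and in both controls. The part of that in the level was not tested. The clearest case of a ligand difference was SDC4 -9.1 kb (chr20:45357214-45357774, intergenic, upstream of SDC4 and nearest to the coding gene SYS1). In control-BT474 its percentile was 35.2 and 40.1 at 1 h, 42.7 and 40.2 at 12 h, and 40.9 and 40.5 at 24 h. In EGF-BT474 it was 49.9 and 51.7 at 1 h, 60.8 and 70.6 at 12 h, and 66.3 and 60.3 at 24 h. HRG-BT474 gave 44 and 45.8 at 1 h, 64.9 and 61.2 at 12 h, and 64.2 and 69.6 at 24 h. All 12 ligand libraries lay above all 6 controls and above the baseline (31.5 and 34.9), and the 1 h libraries were the lowest of each ligand. Averaged over the 3 times, the difference was 20 percentile points for EGF (SE 1.85, limma adjusted p = 4.49e-05) and 18.3 for HRG (SE 1.85, adjusted p = 6.39e-05).

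SDC4 +11.6 kb (chr20:45336469-45337255, in an intron of SDC4) was raised within 1 h. Control-BT474 libraries lay between 59.2 and 66.2, EGF-BT474 libraries between 72.8 and 78.7, and HRG-BT474 libraries between 72.9 and 78.1, with no overlap with the controls. The difference was 12.2 points for EGF (SE 0.922, adjusted p = 1.70e-05) and 12.5 for HRG (SE 0.922, adjusted p = 1.17e-05). At 1 h alone it was 11.6 for EGF and 11.3 for HRG, both past the test.

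SDC4 +2.0 kb (chr20:45346173-45346736, in the first intron of SDC4) had a peak only after ligand and only in BT474 among the libraries measured. It was called in 6 of 6 EGF-BT474 and 6 of 6 HRG-BT474 lists, in 0 of 6 control and 0 of 2 baseline lists of BT474, and in 0 of 20 lists of BT474R. Its levels were low, at 13.5, 9.43, 6.75, 14.6, 20.2 and 24.2 in EGF-BT474 (1, 1, 12, 12, 24 and 24 h) and 3.71, 10.0, 28.3, 27.5, 31.6 and 1.81 in HRG-BT474. The presence differed from control for EGF (Fisher's exact test, two-sided, p = 0.00216, adjusted p = 0.0335) and for HRG (p = 0.00216, adjusted p = 0.0241). Of the 4492 regions whose number of peaks could reach p below 0.05 for EGF-BT474, 6.46% were called (6.41% higher), and of the 4754 for HRG-BT474, 8.98% (7.97% higher). With only peaks of score 400 or more (the lowest deposited score was 200), or with the same number of top peaks from every list, the region had too few peaks to be tested.

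SDC1 -11.0 kb (chr2:20235954-20236359, intergenic, upstream of SDC1) had a similar count without passing the adjusted test. A peak was present in 5 of 6 EGF-BT474, 5 of 6 HRG-BT474 and 0 of 6 control-BT474 lists (Fisher's exact test p = 0.0152 for each ligand, adjusted p = 0.0796 for EGF and 0.0615 for HRG). In BT474R it was present in 18 of 20 lists, at 51.0 and 57.3 in EGF, 51.9 and 51.3 in HRG and 56.3 and 47.6 in control at 1 h, and the only lists without it were both control-BT474R libraries at 12 h. With EGF-BT474 replicate 1 at 12 h left out the region was called for EGF, and with HRG-BT474 replicate 2 at 24 h left out it was called for HRG, which raised the syndecan regions called from 1 to 2 in each case.

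SDC4 +10.6 kb (chr20:45337427-45338206), which lies next to SDC4 +11.6 kb in the same gene, had peaks mostly at 1 h. It stood at 53.8 and 59.2 in EGF-BT474 and 54.9 and 61.5 in HRG-BT474 at 1 h, and at 16.7 and 13.7 in HRG-BT474 at 12 h, and had no peak at 24 h or in EGF-BT474 at 12 h. Control-BT474 had 1 peak of 6 (2.89, at 1 h) and BT474R 1 of 20 (6.05, EGF at 1 h). Over all times the count of 4 of 6 HRG against 1 of 6 control lists did not pass the test (Fisher's exact test p = 0.242), and 2 libraries against 2 at 1 time cannot reach p below 0.05.

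**Figure D3:**
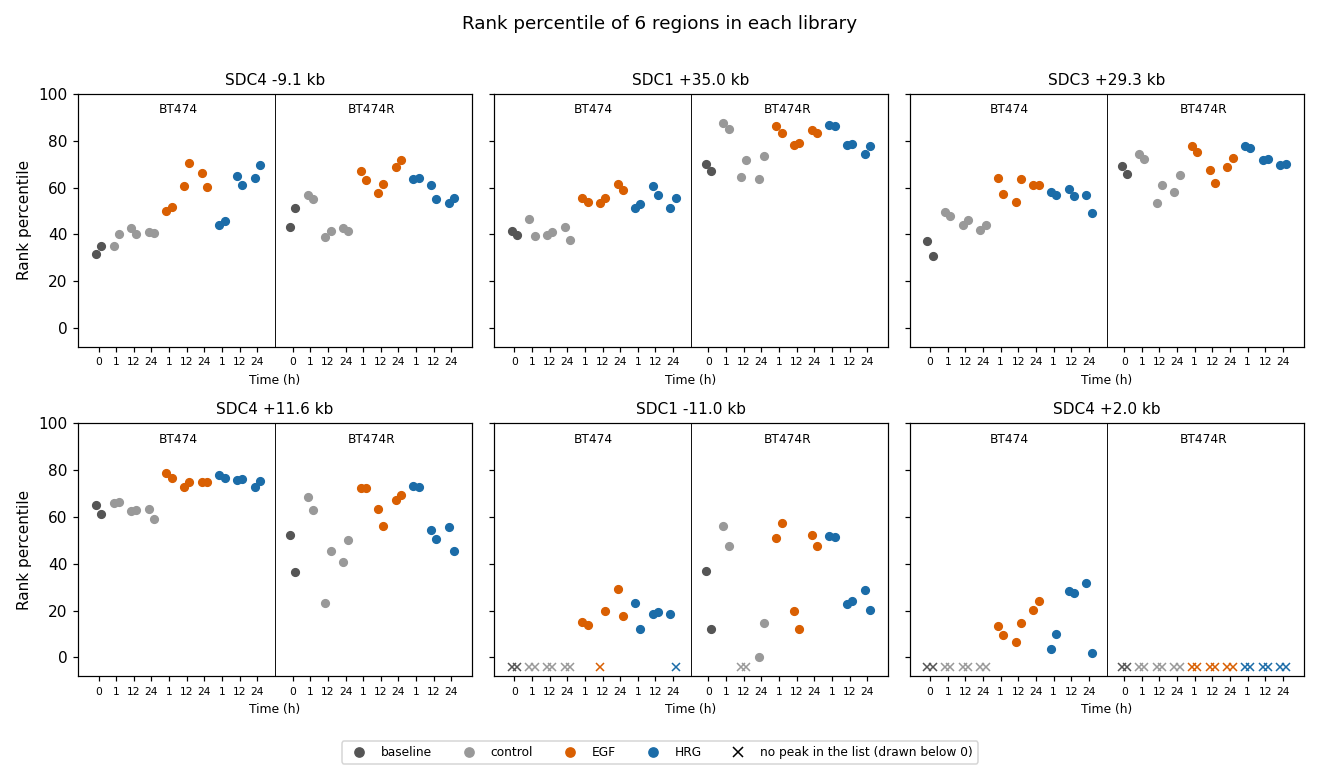
Rank percentile (vertical axis) in each library of 6 regions, by line, arm (colour) and hours (horizontal axis). Each point is 1 library and a cross below 0 marks a list without a peak. At SDC4 -9.1 kb and SDC4 +11.6 kb in BT474 every EGF and HRG point is above every control point, and at SDC4 +2.0 kb peaks appear only in BT474 with ligand.

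Across the 25 syndecan regions with a peak in every BT474 list, levels rose after EGF at 9 and fell at none, and rose after HRG at 7 and fell at none. Of all 36820 regions tested, 17.8% were called for EGF (16.8% or 6198 higher, 355 lower) and 17.7% for HRG (12.4% or 4568 higher, 1952 lower). The median difference over the 25 was 1.79 points for EGF and 0.545 for HRG, against 0.878 and -0.199 over all regions. When percentiles were taken among the 25166 regions shared by all 40 lists, the split of all regions was less one-sided (2749 higher and 1386 lower for EGF, 2887 and 2076 for HRG, or 2515 and 2227 with equal numbers of top peaks), and the syndecan calls were 7 of 19 higher for EGF and 6 of 19 higher for HRG. Both ligands are compared with the same control libraries, so that the lists of called regions are not independent. Lists also differed in length between the arms, at 48788 to 52331 peaks in control-BT474, 48883 to 56846 in EGF-BT474 and 47571 to 53484 in HRG-BT474, and with equal numbers of top peaks from every list the syndecan calls were 4 of 18 for EGF (3675 of 24067 regions) and 3 of 18 for HRG (4742 of 24067).

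By gene, EGF raised 5 of 10 tested regions at SDC1, 2 of 10 at SDC4, 2 of 3 at SDC3 and 0 of 2 at SDC2, and HRG raised 4, 2, 1 and 0. At SDC1 the largest was SDC1 +35.0 kb, past the 3′ end of the gene. Its control-BT474 libraries lay between 37.5 and 46.5, its EGF-BT474 libraries between 53.5 and 61.4 and its HRG-BT474 libraries between 51.1 and 60.8, without overlap with control. The difference was 15.3 points for EGF (SE 1.48, adjusted p = 5.73e-05) and 13.6 for HRG (SE 1.48, adjusted p = 0.000104). SDC1 +42.4 kb differed by 13.4 points for EGF and 10.4 for HRG, with 1 h libraries (39.5 to 44.8) within the range of the controls (32.9 to 49.9) and 12 and 24 h libraries (53.4 to 66.6) above it. SDC1 +40.8 kb rose by 5.97 and 4.49 points, SDC1 +18.9 kb by 5.20 and 2.80, and SDC1 +11.6 kb by 3.49 for EGF. The last of these was lost for EGF, and SDC1 +18.9 kb for HRG, among shared regions (adjusted p = 0.113 and 0.103). Both were lost too with equal top peaks (adjusted p = 0.134 and 0.108) and on the log2 score (0.365 and 0.292), where SDC1 +18.9 kb was also lost for EGF (0.0818), and SDC1 +18.9 kb for HRG was lost on the probit scale (0.0836). SDC1 +18.9 kb for HRG (adjusted p = 0.0451) was further lost without any of 10 of the 12 libraries, all but HRG replicate 2 at 12 h and replicate 2 at 24 h (adjusted p of 0.0623 to 0.122).

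SDC3 responded at SDC3 +29.3 kb (chr1:30879111-30879770), which lies in the first intron of the canonical transcript within 1 kb of the start of another annotated SDC3 transcript. It was 49.8 and 47.6 at 1 h, 43.9 and 46.1 at 12 h and 41.9 and 43.8 at 24 h in control-BT474. EGF-BT474 gave 63.9, 57.3, 53.9, 63.8, 61.3 and 60.9 in the same order of times, and HRG-BT474 gave 57.9, 56.6, 59.3, 56.4, 56.6 and 49.2. All EGF libraries were above all controls, and the lowest HRG library, replicate 2 at 24 h, was at the level of the highest controls. The difference was 14.6 points for EGF (SE 1.99, adjusted p = 0.000463) and 10.5 for HRG (SE 1.99, adjusted p = 0.00367). The baseline libraries, at 37.0 and 30.7, were below every control.

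Its neighbour SDC3 +28.7 kb could not be tested for level in BT474, since 2 of the 20 lists had no peak there. Its mean over the lists with a peak was 8.0 in control (6 of 6 lists), 21.6 in EGF (6 of 6) and 25.2 in HRG (5 of 6). SDC3 +20.7 kb, also in the first intron, was higher after EGF-BT474 by 7.19 points (SE 2.10, adjusted p = 0.0346), with EGF libraries from 48.1 to 55.8 and controls from 40.9 to 53.2, which overlap. That call did not hold among shared regions (3.33 points, adjusted p = 0.120), nor without 8 of the 12 libraries taken singly (adjusted p of 0.0520 to 0.101), which were control replicates 1 and 2 at 1 h, replicate 2 at 12 h and replicates 1 and 2 at 24 h, and EGF replicate 1 at 1 h, replicate 2 at 12 h and replicate 2 at 24 h. For HRG it was 1.31 points (SE 2.10, adjusted p = 0.752).

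At 1 h in HRG-BT474, 2 wide regions fell. SDC1 +27.2 kb was at 73.0 and 78.3 against 85.6 and 85.0 in control (-9.70 points, limma adjusted p = 0.00838), and EGF at 1 h gave 75.6 and 80.1 without passing the test. SDC4 +5.8 kb was at 91.4 and 93.9 against 99.0 and 98.8 (-6.31 points, limma adjusted p = 0.0456). This second region spans 4526 bp and was called as 4 and 3 peaks in those HRG libraries and as 2 and 2 in the controls, with EGF at 1 h (92.1 and 92.4) called as 3 and 3, and the part of that split in the lower level was not tested. By time, the syndecan regions called for EGF-BT474 at 1, 12 and 24 h numbered 2, 5 and 10 (2.53%, 7.38% and 13.2% of all regions), and for HRG-BT474 4, 5 and 4 (9.62%, 8.29% and 10.7%).

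**Figure D4:**
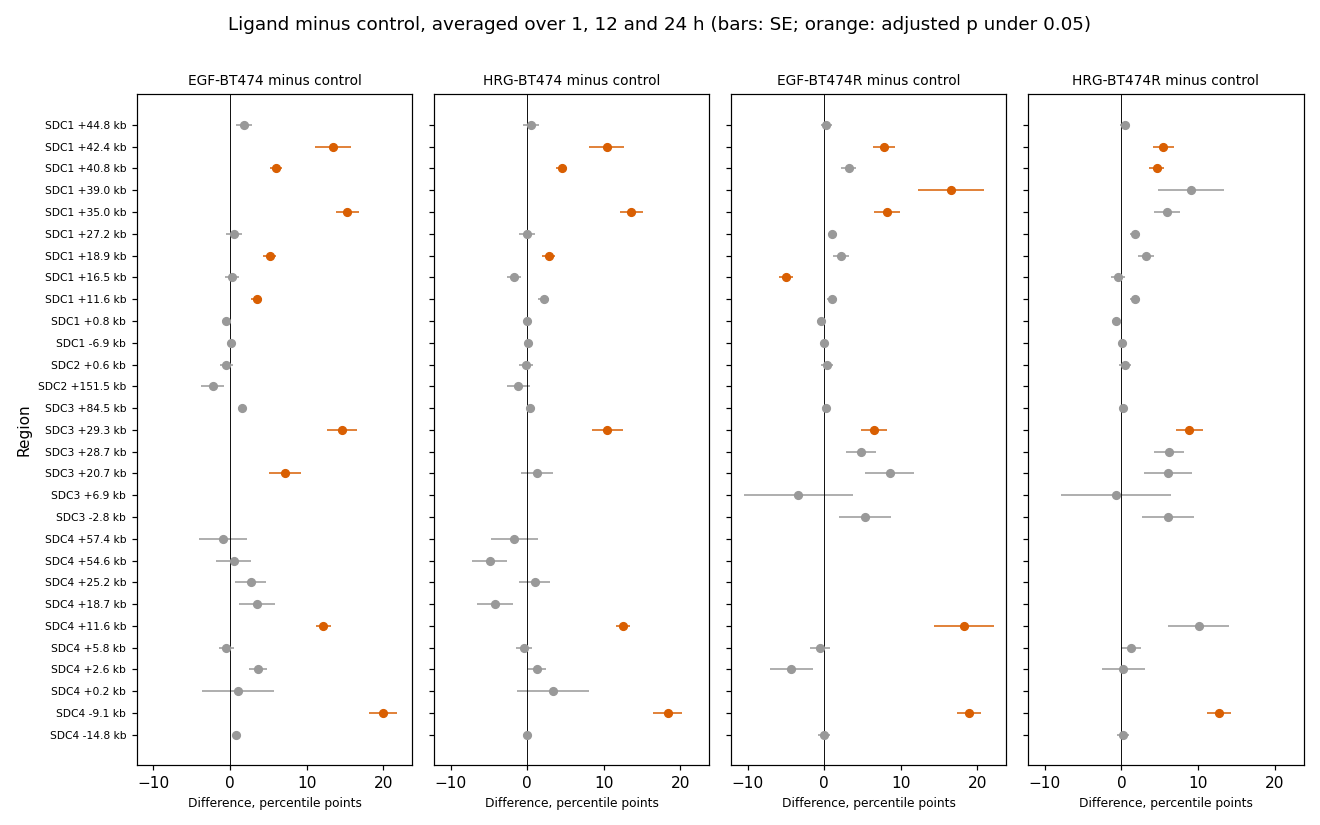
Difference in rank percentile, ligand minus control averaged over 1, 12 and 24 h (horizontal axis, percentile points, bars are SE), for each region with a peak in all 20 lists of the line, in 4 panels by ligand and line. Orange marks limma adjusted p below 0.05. SDC4 -9.1 kb lies at 20, 18.3, 18.9 and 12.7 points, and SDC1 +16.5 kb is below 0 in EGF-BT474R.

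In BT474R, EGF raised 6 and lowered 1 of the 23 syndecan regions with a peak in every list of that line, against 13.7% of all 28260 regions called (9.37% or 2647 higher, 1226 lower). With equal numbers of top peaks the split of all regions was 2159 higher and 2155 lower, and that of the syndecan regions 6 and 2 of 21. SDC4 -9.1 kb was again the clearest, with EGF-BT474R at 67.0 and 63.4 at 1 h, 57.6 and 61.5 at 12 h and 68.7 and 71.8 at 24 h. Control-BT474R gave 57.0 and 55.0, 38.9 and 41.4, and 42.8 and 41.6 at the same times, so that every EGF library was above every control library. The difference was 18.9 points (SE 1.58, adjusted p = 6.89e-05), next to 20 in BT474, and the difference between the lines was -1.08 (SE 2.47, limma adjusted p = 0.937), which does not show that the lines were alike.

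SDC4 +11.6 kb rose by 18.2 points in EGF-BT474R (SE 3.94, adjusted p = 0.0106), but its control libraries ranged from 23.4 at 12 h to 68.7 at 1 h, and 3 of the 6 EGF libraries (63.5 and 56.2 at 12 h, 67.1 at 24 h) lay inside that range. SDC1 +39.0 kb, which had a peak in 3 of 20 BT474 lists, rose by 16.5 points in EGF-BT474R (SE 4.30, adjusted p = 0.0259). Its 24 h EGF libraries, at 82.6 and 67.5, stood above all others of that line (13.7 to 60.6). SDC1 +35.0 kb rose by 8.18 points, SDC1 +42.4 kb by 7.77 and SDC3 +29.3 kb by 6.47 (adjusted p = 0.00833, 0.00398 and 0.0299 in limma). The SDC1 +39.0 kb call was lost without any of 7 libraries (control and EGF replicates 1 and 2 at 1 h, EGF replicate 1 at 12 h, control and EGF replicate 1 at 24 h, adjusted p of 0.0511 to 0.0772), and that of SDC3 +29.3 kb without any of 8 (control and EGF replicates 1 and 2 at 1 h, control and EGF replicate 1 at 12 h, control replicate 1 and EGF replicate 2 at 24 h, adjusted p of 0.0511 to 0.0916). At SDC1 +35.0 kb the control-BT474R libraries were already at 87.4 and 85.1 at 1 h, as high as EGF (86.3 and 83.2), and at 64.5, 71.6, 63.8 and 73.3 later.

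SDC1 +16.5 kb, in the first intron of SDC1, fell by 5.03 points in EGF-BT474R (SE 0.883, adjusted p = 0.00354). EGF libraries were at 89.7 and 87.0 at 1 h, 77.6 and 76.3 at 12 h and 76.5 and 77.0 at 24 h, and controls at 93.6 and 94.0, 79.7 and 82.0, and 83.4 and 81.7, so that EGF was lower at each time. In EGF-BT474 the region did not pass the test, and the difference between the lines did (-5.33 points, SE 1.25, limma adjusted p = 0.0223, where 2.89% of 25166 regions were called). When the scores of all peaks within the region were summed, the fall in EGF-BT474R was 2.42 points and did not pass (limma adjusted p = 0.241), and on the log2 score it did not pass either (adjusted p = 0.177). By adjusted p no other of 19 syndecan regions was called for a difference between lines in the EGF effect. At an unadjusted p below 0.05 there were 8 of 19 for EGF, against 3823 of 25166 regions. For the HRG effect none was called, where 1.51% of regions were. At an unadjusted p below 0.05 there were 2 of 19 for HRG, against 3733 of 25166 regions.

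HRG raised 4 of 23 regions in BT474R (7.57% of all regions called, 7.54% or 2131 higher and 9 lower) and lowered none, namely SDC4 -9.1 kb by 12.7 points (SE 1.58, adjusted p = 0.00198), SDC3 +29.3 kb by 8.89, SDC1 +42.4 kb by 5.50 and SDC1 +40.8 kb by 4.62. The last pair was lost without single libraries, SDC1 +42.4 kb without any of 8 (control replicate 2 and HRG replicates 1 and 2 at 1 h, control and HRG replicate 1 at 12 h, control replicates 1 and 2 and HRG replicate 1 at 24 h) and SDC1 +40.8 kb without any of 5 (control and HRG replicate 2 at 1 h, HRG replicate 1 at 12 h, control and HRG replicate 1 at 24 h), at adjusted p of 0.0524 to 0.112. All regions together were shifted by a median of 2.32 points in this comparison. Among shared regions, where the median was -0.566, 0 of 19 syndecan regions were called, against 764 of all 25166. With equal numbers of top peaks 0 of 21 were called, against 668 of all 22908. In each setting 8 syndecan regions had an unadjusted p below 0.05. HRG-BT474R libraries at SDC4 -9.1 kb (53.5 to 63.9) exceeded all controls but those at 1 h (57.0 and 55.0). Without the 12 h libraries of BT474R, which leaves fewer samples, 2 of 23 syndecan regions were called for EGF (SDC4 -9.1 kb, higher by 18.7 points, and SDC1 +16.5 kb, lower). For HRG 0 of 23 were called (4 at an unadjusted p below 0.05 in limma). Of all 28260 regions, 1493 were called for EGF and 20 for HRG. The differences of the syndecan regions no longer called kept their direction. They were 14.6 points at SDC4 +11.6 kb and at SDC1 +39.0 kb, 6.99 at SDC1 +35.0 kb, 6.07 at SDC3 +29.3 kb and 5.77 at SDC1 +42.4 kb for EGF, and 10.1 at SDC4 -9.1 kb, 5.98 at SDC3 +29.3 kb, 3.19 at SDC1 +42.4 kb and 2.94 at SDC1 +40.8 kb for HRG.

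At 1 h in BT474R no syndecan region was called for either ligand, as for nearly all regions (0.0354% for EGF, 0 for HRG, with 2 and 1 syndecan regions at an unadjusted p below 0.05). At 12 h, 3 were called for EGF and 8 for HRG (7.46% and 13.0% of all regions), and at 24 h 6 and 0 (8.56% and 0.120%, with 5 for HRG at an unadjusted p below 0.05). No presence difference was called for either ligand in BT474R at the 3 and 4 syndecan regions tested (0 of 6819 and of 6415 regions by adjusted p, 4.08% and 2.31% by unadjusted p, and 0 syndecan regions by unadjusted p).

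The second comparison was BT474R against BT474 over the same 10 conditions. At most regions tested, peaks at SDC1 and SDC3 were higher or more often present in BT474R, and those at SDC4 in BT474. A difference in copy number, not measured here, cannot be told apart from one in accessibility. Line differences were common throughout the genome. Of 32683 regions tested for presence, 71.7% were called (27.2% or 8878 higher in BT474R, 44.6% or 14566 lower), and with equal numbers of top peaks the split was 7034 and 7447. The syndecan regions SDC1 +46.7 kb, SDC1 -17.7 kb and SDC3 -25.3 kb had peaks in 3, 2 and 4 BT474R lists and in no BT474 list, too few to test, and SDC3 -2.8 kb and SDC3 +28.7 kb had too few lists without a peak. Of 17 syndecan regions tested, 16 were called, 8 higher and 8 lower. With equal numbers of top peaks 11 of 11 were called, of which 6 were higher, against 14481 of all 19028 regions tested. With baseline and control libraries alone 9 of 10 were called, 6 of them higher. In that setting 13505 of all 17872 regions tested were called, 5083 higher and 8422 lower.

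At SDC3, 3 regions with a peak mainly in BT474R were called. SDC3 +54.4 kb, past the 3′ end of the gene, had a peak in 19 of 20 BT474R and 0 of 20 BT474 lists (Fisher's exact test adjusted p = 2.64e-09), with levels from 13.6 to 39.1. SDC3 +17.3 kb had one in 12 against 0 lists (adjusted p = 0.000125) and SDC3 +6.9 kb in 20 against 6 (adjusted p = 1.19e-05). These last both lie in the first intron. Their levels were in the lower part of the lists, with a mean over the lists with a peak of 25.7, 21 and 29.1 in BT474R. With equal numbers of top peaks the first was no longer called.

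Among the 19 regions with a peak in all 40 lists, the largest level difference was also at SDC3. SDC3 +20.7 kb (chr1:30887028-30889085) ranged from 23.8 to 55.8 in the 20 BT474 libraries, with a mean of 46.3, and from 72.7 to 97.7 in the 20 BT474R libraries, with a mean of 85.6. The ranges did not overlap, and the difference was 39.2 points (SE 1.5, limma adjusted p = 6.83e-16). Within BT474R its highest values were EGF at 24 h (97.2 and 97.7), HRG replicate 1 at 24 h (95.5) and control replicate 2 at 24 h (95.5). In each of those lists the region was called as 1 peak, and in every other BT474R list as 2. The part of that in the higher level was not tested. SDC3 +29.3 kb was higher by 17.1 points (69.0 against 51.9) and SDC3 +84.5 kb by 5.47 (95.2 against 89.7). SDC3 +28.7 kb, with peaks in 20 and 18 lists, had a mean of 45.5 in BT474R and 17.3 in BT474.

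SDC1 differed in the same direction at its intronic and 3′ flanking regions. Levels in BT474R were higher at SDC1 +35.0 kb by 28.2 points (78.0 against 49.8), SDC1 +44.8 kb by 21.7, SDC1 +11.6 kb by 18.8, SDC1 +27.2 kb by 13.9, SDC1 +42.4 kb by 12.9, SDC1 +18.9 kb by 10.1, SDC1 +16.5 kb by 9.75 and SDC1 +40.8 kb by 7.09. At the promoter region SDC1 +0.8 kb the difference was -0.0598 (SE 0.282, adjusted p = 0.851) and at SDC1 -6.9 kb 0.261 (SE 0.133, adjusted p = 0.0748), both within the top few percent of the lists where a percentile has little room to move. Peaks were more often present in BT474R at SDC1 +39.0 kb (20 against 3 lists), SDC1 +7.5 kb (18 against 0), SDC1 +3.1 kb (11 against 0) and SDC1 -11.0 kb (18 against 10), and less often at SDC1 +47.5 kb (4 against 14). Of those 14 BT474 lists 12 were EGF or HRG lists, and in baseline and control lists the counts at SDC1 +47.5 kb were 1 of 8 and 2 of 8, too few to test. At SDC1 +3.1 kb the BT474R lists with a peak were 0 of 2 baseline, 2 of 6 control, 4 of 6 EGF and 5 of 6 HRG. The baseline and control lists alone were too few to test there as well.

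SDC4 went the other way. Peaks were present in all 20 BT474 lists but in 1 BT474R list at SDC4 +54.6 kb, in an exon of MATN4 (adjusted p = 2.64e-09), in 2 at SDC4 +57.4 kb (2.32e-08), in 3 at SDC4 +25.2 kb (1.46e-07), in 7 at SDC4 +18.7 kb (4.05e-05) and in 14 at the promoter region SDC4 +0.2 kb (0.0287), all by Fisher's exact test. MATN4 is also the nearest coding gene to SDC4 +57.4 kb. SDC4 +2.0 kb was in 12 BT474 lists, all with ligand, and in 0 BT474R lists. SDC4 +26.4 kb ran against the rest, with 9 BT474R lists and 1 BT474 list. Its BT474R lists were 2 of 2 baseline, 4 of 6 control, 3 of 6 HRG and 0 of 6 EGF, at a low mean of 14.2. In baseline and control libraries alone its call was lost (Fisher's exact test adjusted p = 0.0515), and SDC4 +18.7 kb could not be tested. Among regions with a peak in all 40 lists, SDC4 +2.6 kb was lower in BT474R by 17.7 points (42.1 against 59.9), SDC4 +11.6 kb by 14.1 and SDC4 -14.8 kb, at the start of SYS1, by 2.46, whereas SDC4 -9.1 kb was higher by 4.91 (lost on the log2 score, where the difference was 0.03). SDC4 +5.8 kb was lower by 2.90 points, and without the 12 h libraries of both lines the difference was 0.410 in the other direction.

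At the SDC4 promoter region the 6 BT474R lists without a peak were a baseline library, 1 control library at 12 h, and all 4 EGF and HRG libraries at 12 h, the time at which the BT474R lists were shortest. Leaving out the 12 h libraries, or keeping only baseline and control libraries, ended that call. SDC2 +0.6 kb was lower in BT474R by 9.25 points (SE 0.433, limma adjusted p = 2.11e-14). The region was called as 2 peaks in most BT474R lists and as 1 in most BT474 lists. That call held when the scores of all peaks within the region were summed. SDC2 +151.5 kb, the promoter of the neighbouring gene CPQ, had a peak in 10 of 20 BT474R and 20 of 20 BT474 lists (adjusted p = 0.000953 by Fisher's exact test). The SDC2 +151.5 kb call was lost without the 12 h libraries (adjusted p = 0.0537). It was not tested in baseline and control libraries alone, where 4 of 8 against 8 of 8 lists cannot reach p below 0.05.

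Over the 19 syndecan regions with a peak in all 40 lists, 17 were called for level, 12 higher and 5 lower in BT474R, against 81.6% of 25166 regions (32.0% or 8061 higher, 49.6% or 12476 lower). With percentiles taken among shared regions the split of all regions was 10328 higher and 10606 lower, on the log2 score 4249 higher and 17232 lower, and for the syndecan regions 13 and 5 in the first and 11 and 6 in the second. The median difference was 7.09 points for the 19 and -1.51 for all regions.

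**Figure D5:**
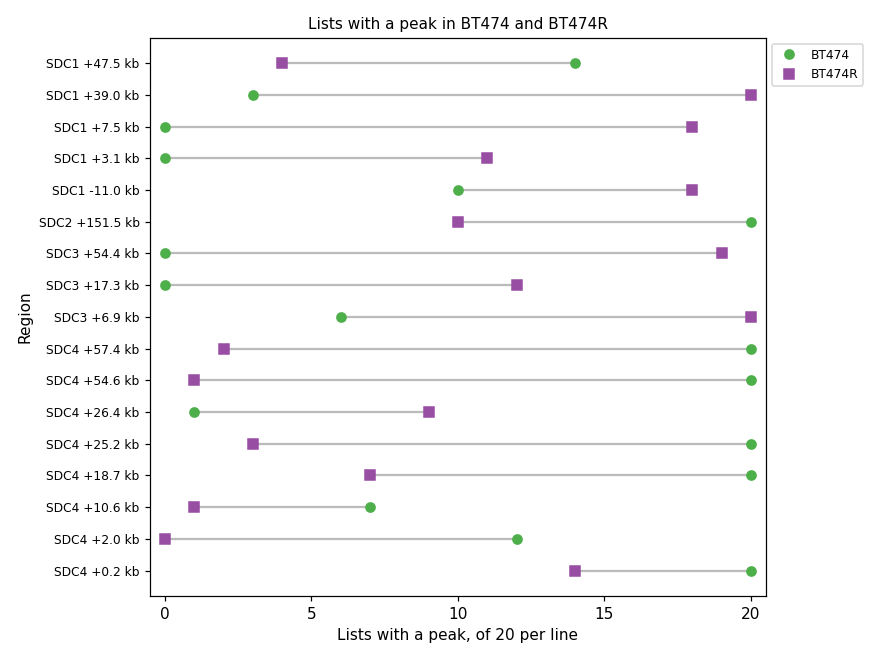
Number of lists with a peak, of 20 in each line (horizontal axis), at the 17 syndecan regions tested for presence, with BT474 as green circles and BT474R as purple squares joined by a line. SDC3 regions lie to the right in BT474R, and 7 of the 8 SDC4 regions lie to the right in BT474.

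Promoters of other genes of the heparan sulfate pathway were followed in the same way. The list held 41 genes, of which 34 had a region within 1 kb of the start and 28 had it in all 40 lists. Ligands moved few of these, as they did few promoters at large (2.47% of 10653 promoters for EGF-BT474 and 2.79% for HRG-BT474). SDCBP2, a relative of the syndecan-binding adaptor syntenin, rose by 5.93 points in EGF-BT474 (adjusted p = 0.0208) and 5.17 in HRG-BT474 (adjusted p = 0.0400), the only call of 31 in each. In BT474R, NDST1, which sulfates the growing heparan sulfate chain, fell by 7.58 points after EGF (adjusted p = 0.0318), and EXTL2, a related glycosyltransferase, rose by 3.76 after HRG (adjusted p = 0.0124), the only calls of 28 in each, where 1.02% and 0.598% of 9190 promoters were called.

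Between lines, 5 of 28 pathway promoters were higher and 17 lower in BT474R, where 79.9% of 9115 promoters were called and 19.3% were higher. Of all promoters, 7285 were called and 1763 of these were higher, so that most called promoters at large were lower too. The median difference was -2.70 points for the pathway promoters and -2.69 for all promoters, so that the falls below do not set the pathway apart. Of 16 chain synthesis genes tested, 11 were lower and 1, HS2ST1 (a sulfotransferase), was higher. EXT2, the partner of EXT1 in the chain polymerase, fell from 64.4 to 34.5 and NDST1 from 88.9 to 70.7, whereas EXT1 moved from 86.4 to 77.3. Among glypicans, the other cell surface heparan sulfate proteoglycans, GPC1 fell from 84.6 to 55.4 and GPC2 rose by 3.07 points, with GPC6 the third call of 4. HPSE, the heparanase that cuts the chains, had a promoter peak in 20 BT474 and 11 BT474R lists (adjusted p = 0.00244), and the sheddase ADAM10 fell by 10.1 points while ADAM17 rose by 0.753. Of the cytoplasmic partners, SDCBP (syntenin) fell by 12.2 points and PRKCA by 13.6, and EZR had a peak in 20 and 13 lists (adjusted p = 0.0133).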

How the data were processed

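ATAC-seq peak lists of 40 libraries were used, 20 per line, mapped to arms and times by their labels. Per the labels and the study's methods, the authors trimmed reads with Trim Galore 0.6.6, checked them with FastQC, aligned them to GRCh38.p13 (hg38) with BBMap, removed mitochondrial and blacklisted reads, and called peaks in each library with Genrich, whose options the sources do not state. The authors also deposited −log10 p and q values of each peak, which were not used here. The deposited unit used is the score in column 7 of each peak. The authors' count model could not be repeated, since lists hold no counts, and read depth is unknown.

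Peaks were merged over lists (1 bp), and regions in 2 or more lists kept. A region's score in a list was that of its highest peak, turned into a rank percentile within the list. Genes came from GENCODE release 44, and motif windows were read from hg38 at 100 bases on either side of the summit. Presence was tested by Fisher's exact test (two-sided, times pooled) over regions able to reach p below 0.05. Level was tested with limma 3.58.1 in R 4.3.3 over regions with a peak in every list concerned. All adjusted p-values are Benjamini-Hochberg over all regions tested, called below 0.05, and both tests were checked on simulated data. Python 3.11.15, pandas 2.3.3 and scipy 1.17.1 were used.

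The genes, regions and pathway list were chosen with earlier results of these data known. Named regions were each gene's promoter region, every region called in a comparison, per gene the highest region and up to 2 with the largest difference in presence, and every region in the SDC3 gene body. Other regions named were chosen after their values were seen. Alternatives were the probit of the percentile, the log2 score, percentiles among shared regions, equal numbers of top peaks, a score of at least 400, regions in 4 or more lists, a 10 kb window, peaks trimmed to 400 bp, the replicate block, baseline and control libraries alone, and each library left out. Summed scores and leaving out the 12 h libraries were added after seeing the data.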

Additional observations from a re-analysis of the deposited data

Results flagged for a closer look

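In 12 of 153 groups of region, line and arm, 1 library stood apart from the others of its arm by Dixon's criterion, which chance gives in about 1 group of 20. Groups pool times, so that a library may stand apart with its time. At SDC1 +27.2 kb, EGF-BT474R replicate 1 at 12 h was at 95.6 (others 98.8 to 99.4), and HRG-BT474R replicate 2 at 24 h was at 99.1 (others 99.4 to 99.5). At the promoter region SDC1 +0.8 kb, EGF-BT474 replicate 2 at 12 h was at 95.5 (others 99.0 to 99.2) and control-BT474R replicate 1 at 12 h at 97.6 (others 99.2 to 99.6). The first of these was called as 2 peaks there and as 1 in the other EGF-BT474 lists.

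At SDC2 +0.6 kb, control-BT474 replicate 2 at 12 h was at 95.8 (others 98.3 to 98.7) and HRG-BT474 replicate 2 at 24 h at 94.9 (others 98.3 to 98.6). In both of these lists the region was called as 2 peaks, and in the other lists of their arms as 1. At SDC3 +29.3 kb, HRG-BT474 replicate 2 at 24 h was at 49.2 (others 56.4 to 59.3). HRG-BT474R replicate 1 at 24 h stood high at SDC3 +20.7 kb, at 95.5 (others 84.1 to 88.2), and at SDC3 +6.9 kb, at 73.3 (others 12.9 to 25.2). SDC3 +20.7 kb was called as 1 peak in that list and as 2 in the other HRG-BT474R lists.

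At SDC4 +5.8 kb, control-BT474 replicate 1 at 24 h was at 91.4 (others 98.8 to 99.0) and was called as 4 peaks. At SDC4 -9.1 kb, control-BT474 replicate 1 at 1 h was at 35.2 (others 40.1 to 42.7), and at SDC4 -14.8 kb, EGF-BT474 replicate 1 at 12 h was at 89.2 (others 90.2 to 90.8). The EGF effect at SDC1 +16.5 kb differed between the lines by -5.33 points (BT474R minus BT474, limma adjusted p = 0.0223). That difference between lines was not examined under the alternatives or with single libraries left out. The fall in EGF-BT474R did not pass with summed scores or on the log2 score (limma adjusted p = 0.241 and 0.177).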

How the results depend on the processing

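With regions within 10 kb of the genes there were 25 in place of 41. Counts of syndecan regions called moved by over 1.5 times as follows, and the cause was not tested. For presence, EGF-BT474 (1) gave 0 with a score of at least 400, 0 with equal top peaks and 0 with the replicate block. HRG-BT474 (1) gave 0 with either of the first 2. The line comparison (16) gave 9 in baseline and control libraries alone (13505 of all 17872 regions tested). For level with equal top peaks, EGF-BT474 (9) gave 4, HRG-BT474 (7) gave 3 and HRG-BT474R (4) gave 0 (668 of all 22908 regions). On the log2 score, EGF-BT474R (7) gave 3, HRG-BT474R 2, EGF-BT474 at 24 h (10) 5, EGF-BT474R at 12 h (3) 0 and HRG-BT474R at 12 h (8) 2. Among shared regions, HRG-BT474R gave 0 (764 of all 25166 regions), EGF-BT474 at 12 h (5) 3 and HRG-BT474R at 12 h 1. Without the 12 h libraries, chosen after seeing the data, EGF-BT474R gave 2 (1493 of all 28260 regions) and HRG-BT474R 0 (20 of 28260). In that setting SDC4 +5.8 kb reversed between the lines (0.410). Summed scores, also chosen then, gave 10, 8, 7, 5 and 19 for EGF-BT474, HRG-BT474, EGF-BT474R, HRG-BT474R and the lines.

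Leaving out each library gave 8 to 12 level calls for EGF-BT474, 6 to 7 for HRG-BT474, 5 to 9 for EGF-BT474R, 2 to 10 for HRG-BT474R and 17 for the lines, and 1 to 2, 1 to 2, 0, 0 and 16 to 17 presence calls. HRG-BT474R gave 2 without control or HRG replicate 2 at 1 h, HRG replicate 1 at 12 h, or control or HRG replicate 1 at 24 h, and 10 without control replicate 2 at 12 h. By time (1, 12 and 24 h) the ranges were 0 to 2, 2 to 7 and 6 to 8 for EGF-BT474, 1 to 3, 3 to 4 and 2 to 5 for HRG-BT474, 0 to 0, 1 to 7 and 1 to 6 for EGF-BT474R, and 0 to 0, 1 to 12 and 0 to 1 for HRG-BT474R. The libraries whose absence moved these counts by over 1.5 times were, for EGF-BT474, all but control replicate 1 at 1 h, all but EGF replicate 1 at 12 h and control replicate 2 at 24 h, for HRG-BT474 all but HRG replicate 2 at 1 h, control replicate 1 and HRG replicate 2 at 12 h and HRG replicate 2 at 24 h, for EGF-BT474R all 4 at 12 h and all but control replicate 2 at 24 h, and for HRG-BT474R all but control replicate 2 at 12 h and control replicate 2 at 24 h. Single times rest on 2 libraries an arm, and the lone library left was assumed to vary like the other groups.

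Replicate numbers did not pair the samples (correlations of -0.182 to 0.583 in BT474, 4 of 45 above 0.1, and -0.281 to 0.429 in BT474R, 10 of 45 above 0.1). With the replicate block, level calls numbered 9, 7, 7, 4 and 17 as without it, and presence calls 0 for EGF-BT474, 1 for HRG-BT474 and 16 for the lines. Of the other values for single regions, 1979 kept their direction and side of the threshold, 92 kept their direction only and 1 reversed. Percentiles compress differences near the top of a list, and weak peaks near the lowest score can drop out of short lists.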
